A study of Mus musculus with 29 samples.

Results

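Retnla, Ccl24, Arg1, Chil3, Mrc1, Mgl2, Pdcd1lg2 and Il4ra make up a set of 8 genes of alternative macrophage activation, and 7 of the 8 had a row among the 23930 genes of the deposited table. Chil3 was not analysed here. The members were chosen by symbol. Retnla and Ccl24 were put on the list because they were among the strongest falls without RNase T2 in these same libraries, so their values are given as a description and carry no test. The other 5 genes were tested.

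Splenic and hepatic macrophages were taken by cell sorting from untreated mice, either wild-type or Rnaset2-/-. The latter lack both genes of the lysosomal ribonuclease RNase T2, Rnaset2a and Rnaset2b. The 29 libraries formed 9 groups. Each of the 4 Ly6C-high and Ly6C-low groups per genotype, in spleen and in liver, held 3 libraries, except for Rnaset2-/- splenic Ly6C-low macrophages with 4. A further 4 libraries were of wild-type Kupffer cells (KCs), the resident macrophages of the liver. Ly6C-high cells were gated as CD11b+ and negative for Ly6G, SiglecF and NK1.1, Ly6C-low cells were in addition Fcgr4+, and KCs were F4/80+, CD11b-intermediate, Tim4+ and PDCA-1-low. The labels give no age, and they do not say whether the libraries of a group came from separate mice, so the p-values measure the spread between libraries, which may be technical.

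In alternative activation, IL-4 or IL-13 binds a receptor that contains IL-4Rα, the product of Il4ra, and JAK kinases then phosphorylate STAT6, which enters the nucleus and switches on a characteristic group of genes. Retnla encodes RELMα, a secreted protein of type 2 inflammation and tissue repair, and Ccl24 encodes eotaxin-2, a chemokine for eosinophils that acts through CCR3. Arg1 encodes arginase 1, which converts arginine to ornithine and urea, Mrc1 encodes the mannose receptor CD206, Mgl2 encodes the galactose-binding lectin CD301b, and Pdcd1lg2 encodes PD-L2, a ligand of PD-1. KCs are also known for high Mrc1, as are the endothelial cells of liver sinusoids, and hepatocytes are the main site of Arg1 in the body.

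In the GRCm38 annotation the 7 genes lie apart, each on its own chromosome: Retnla at chr16:48842551-48844461, Ccl24 at chr5:135569937-135573049, Arg1 at chr10:24915221-24927484, Mrc1 at chr2:14229392-14332057, Mgl2 at chr11:70130329-70137550, Pdcd1lg2 at chr19:29410919-29471161 and Il4ra at chr7:125552120-125579474. Upstream sequences from RefSeq matched 5 of the 7 members, all but Ccl24 and Arg1. In the 250 bases before the start site of each gene in that table, on both strands, the STAT6 motif (TTC and GAA with any 4 bases between them) matched Retnla and Pdcd1lg2, and neither it nor the C/EBP motif TTGCNNAA matched Mrc1, Mgl2 or Il4ra. The STAT6 motif was present in 5.85% and the C/EBP motif in 9.56% of 32851 promoter windows of this length. Retnla held both motifs, the first from 145 to 136 bases and the second from 134 to 127 bases before the start site used in that table, chr16:48842609, which lies inside the annotated gene. The Pdcd1lg2 match lay from 82 to 73 bases before its start. Both sequences are shown because Retnla changed most and because they are the members whose windows carried the STAT6 motif. Capitals mark the motif matches, and both genes lie on the + strand of GRCm38.p6, with Retnla given at chr16:48842359-48842550 and Pdcd1lg2 at chr19:29410669-29410918. All 250 bases of each window were searched, and the Retnla stretch is printed only up to the annotated start of the gene.
Retnla: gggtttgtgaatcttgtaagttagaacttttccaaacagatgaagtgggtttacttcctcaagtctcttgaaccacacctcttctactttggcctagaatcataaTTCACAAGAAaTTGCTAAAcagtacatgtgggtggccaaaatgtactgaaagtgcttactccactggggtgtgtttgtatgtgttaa
Pdcd1lg2: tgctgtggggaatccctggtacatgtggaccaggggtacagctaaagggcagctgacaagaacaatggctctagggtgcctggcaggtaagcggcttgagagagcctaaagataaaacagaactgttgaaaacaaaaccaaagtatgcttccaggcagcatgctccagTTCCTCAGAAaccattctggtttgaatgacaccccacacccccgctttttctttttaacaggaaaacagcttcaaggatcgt
These matches are letters in the sequence, and binding was not measured.

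The libraries held 11175843 to 21167602 reads, and values are in RPM, the reads of a gene scaled to a common library total, so that 3 reads, taken here as the detection floor, correspond to 0.142 to 0.268 RPM. Summed levels of 4 Ly6C-high monocyte markers were 960 to 4080 RPM in the Ly6C-high libraries and 29.2 to 946 RPM in the Ly6C-low libraries. The 8 Ly6C-low monocyte markers separated the hepatic subsets less well. They summed to 7345 to 8063 RPM in wild-type hepatic Ly6C-high and 10456 to 11236 RPM in Ly6C-low libraries. In Rnaset2-/- liver they overlapped, at 1867 to 7981 and 4676 to 6627 RPM. The 8 KC markers summed to 6736 to 19393 RPM in KCs, overlapping Rnaset2-/- hepatic Ly6C-low macrophages (6986 to 11622 RPM). Replicate 1 of both Rnaset2-/- liver subsets and of Rnaset2-/- splenic Ly6C-low macrophages stood furthest from the other libraries of its group, and values without it are given where they change a result. KC replicate 3 also stood apart, its counts differing from those of each other KC library by a chi-square of 82.8 to 106 averaged over genes, where the other KCs differed from each other by 26.7 to 60.2, and with a KC marker sum of 6736 RPM against 17289 to 19393 RPM. Leaving it out changed no member's call. Xist was at or below 0.781 RPM in 7 libraries, all 6 of Rnaset2-/- liver and 1 of the 4 of Rnaset2-/- splenic Ly6C-low macrophages, and was at least 321 RPM in the other 22, which include every wild-type liver library. The Y-linked genes Ddx3y, Kdm5d, Eif2s3y and Uty summed to 150.1 to 291 RPM in the Rnaset2-/- liver libraries. In wild-type liver they reached at most 41.4 RPM in Ly6C-high and 52.0 RPM in Ly6C-low macrophages. They were found beside Xist in replicates 2 and 3 of both subsets, and were at 0 RPM in replicate 1 of both and in KCs. Whether these replicates 2 and 3 held cells of both sexes was not tested. In the liver, genotype and sex therefore cannot be told apart. Liver was dissociated in a heated device and spleen was minced mechanically, and splenic cells alone were depleted of lymphoid and erythroid cells with beads before sorting, so organ and preparation also cannot be told apart.

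A gene was called when it changed by >1.5-fold with an adjusted p below 0.05 in limma, adjusted by the Benjamini-Hochberg method over all tested genes, and a gene entered a test if 3 or more of its libraries reached 1 RPM. Fold changes are on the scale of log2(RPM + 1) after relative log expression scaling, which understates the change of low genes. Of the 5 tested members, 3 passed the filter in splenic Ly6C-high macrophages, where 1 rose and 1 fell without RNase T2, against 9.77% of all 10398 tested genes higher and 12.5% lower. In splenic Ly6C-low macrophages 2 passed it and 0 were called by limma, with both at an unadjusted p below 0.05, against 4.05% of all tested genes higher and 4.3% lower, and DESeq2 called 1. Among hepatic subsets, 4 passed it in Ly6C-high macrophages, and 1 rose and 0 fell, against 15.7% of all tested genes higher and 14.9% lower. All 5 passed it in hepatic Ly6C-low macrophages, and 1 rose and 2 fell, against 20.2% higher and 22.5% lower. Both that fell, Mgl2 and Arg1, met the filter through the wild-type libraries. Mgl2 was at 0 RPM without RNase T2, and Arg1 was under 1 RPM in Rnaset2-/- replicates 2 and 3. Among the 4 genotype comparisons scaling moved the median most in hepatic Ly6C-high macrophages, where the median log2 change of all tested genes was 0.01 with scaling factors and 0.31 without them. The calls there were 1717 higher and 1634 lower with scaling, against 2661 and 905 without it, and in splenic Ly6C-high macrophages they were 1016 and 1295 against 733 and 1620.

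Retnla was highest in wild-type hepatic Ly6C-low macrophages, and none of its reads were found in the same subset without RNase T2. The wild-type libraries held 418, 389 and 431 RPM (413 ± 21.8, SD, n = 3), and the 3 Rnaset2-/- libraries held 0 RPM. The mean was at least 1768-fold lower, set against a floor of 3 reads in each library. This was the widest gap between genotypes of any member. The wild-type hepatic Ly6C-high libraries held 3.16, 4.005 and 3.94 RPM and their Rnaset2-/- counterparts 0, 0.154 and 0 RPM. These were 133 reads against 2 over the 3 libraries, a ratio of 71.8 at equal depth with a 95% counting interval of 19.5 to 599.

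In the spleen of both genotypes Retnla was higher in Ly6C-low than in Ly6C-high macrophages. Wild-type splenic Ly6C-low macrophages held far less than their hepatic counterparts, at a mean of 25.3 against 413 RPM. Without RNase T2 the splenic Ly6C-low mean, 1.31 RPM, was above the hepatic one of 0 RPM. Wild-type splenic Ly6C-low macrophages held 42.5, 5.83 and 27.6 RPM and Rnaset2-/- ones held 1.64, 2.48, 0.213 and 0.916 RPM. The groups did not overlap, and the means stood 19.3-fold apart, or 12.7-fold without wild-type replicate 1, with a wide spread among the wild-type libraries. The wild-type libraries of splenic Ly6C-high macrophages held 0.624, 1.11 and 0.77 RPM, and the Rnaset2-/- libraries held 0 RPM, at least 5.68-fold lower against the floor. KCs held 2.95, 9.48, 1.57 and 3.44 RPM, which overlapped wild-type hepatic Ly6C-high macrophages and lay wholly below wild-type hepatic Ly6C-low macrophages. Ordered by mean, the groups ran from wild-type hepatic Ly6C-low (413 RPM) through wild-type splenic Ly6C-low (25.3 RPM), KCs (4.36 RPM) and wild-type hepatic Ly6C-high (3.70 RPM) to Rnaset2-/- splenic Ly6C-low (1.31 RPM) and wild-type splenic Ly6C-high (0.835 RPM), with the other Rnaset2-/- groups at or near 0. Neighbours in this order overlapped except at the first step, below wild-type hepatic Ly6C-high, and below wild-type splenic Ly6C-high.

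Markers of other cell types also differed between the genotypes in hepatic Ly6C-low macrophages. The 9 dendritic cell markers summed to 668 to 792 RPM in wild-type and 138 to 333 RPM in Rnaset2-/- libraries, and 6 of the 9 tested fell while 1 rose. The 6 eosinophil markers were low in both, at 2.32 to 3.76 RPM and 2.26 to 14.7 RPM, and the granule protein genes Epx and Prg3 were at 0 in every wild-type library of this subset. The 8 Ly6C-low monocyte markers summed to 10456 to 11236 RPM in wild-type and 4676 to 6627 RPM in Rnaset2-/- libraries, and 4 of 8 fell. Sums were higher without RNase T2 for KC markers (478 to 787 against 6986 to 11622 RPM, 5 of 8 rose), B cell markers (25.7 to 29.98 against 103 to 370 RPM, 4 of 4 rose) and erythroid markers (1.08 to 5.84 against 57.4 to 155 RPM, 5 of 5 rose). The part of these cells in the level of Retnla was not tested. In all of these bulk samples, fewer cells of a type and less RNA per cell cannot be told apart.

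The resistin-like paralogs of Retnla did not share its levels. Retnlb and Retn had group means of at most 0.213 and 0.268 RPM. Retnlg, a resistin-like gene known from neutrophils and their precursors, averaged 80.8 RPM in wild-type and 827 RPM in Rnaset2-/- splenic Ly6C-low macrophages and rose there by 2.82 on the log2 scale (SE 0.706, limma adjusted p = 0.0431), in the comparison in which Retnla was lower. The 12 neutrophil markers summed to 1127 to 2444 RPM in those wild-type libraries and to 3409 to 39325 RPM in the Rnaset2-/- ones. Of them, 2 of 12 rose. In the liver Retnlg averaged 177 against 10.97 RPM in Ly6C-high macrophages and 3.03 against 0.411 RPM in Ly6C-low macrophages, in wild-type against Rnaset2-/- libraries, and it fell in both. In hepatic Ly6C-low macrophages Retnlg passed the filter only through the wild-type libraries.

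**Figure D1:**
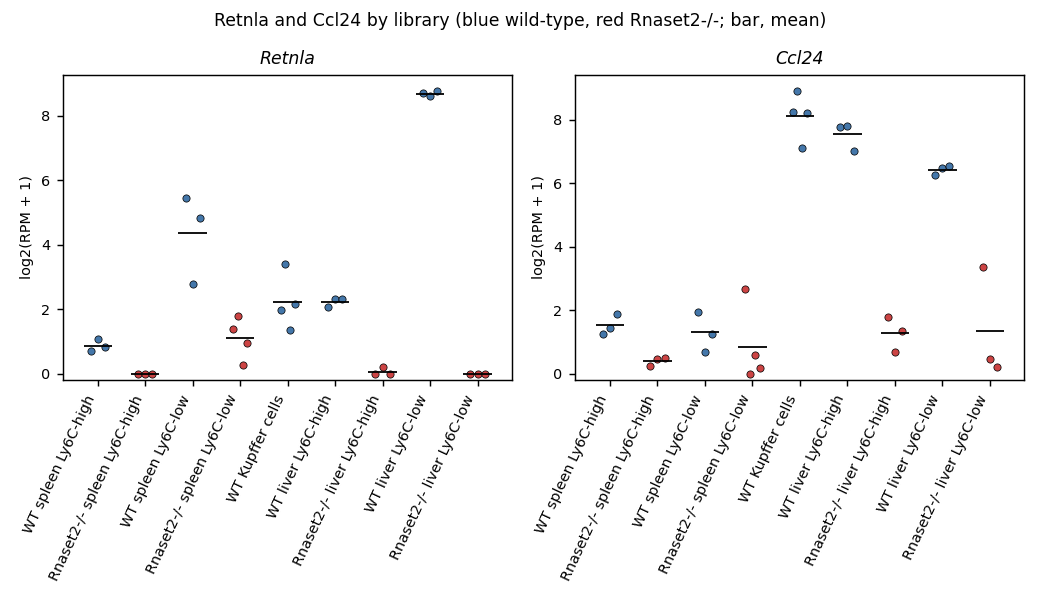
Retnla (left) and Ccl24 (right) in each of the 29 libraries, as log2(RPM + 1) on the vertical axis of each panel; points are libraries, bars are group means on that scale, blue is wild-type and red is Rnaset2-/-. Retnla stands above every other group in wild-type hepatic Ly6C-low macrophages and at 0 in the same subset without RNase T2, and Ccl24 is high in the 3 wild-type liver groups.

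Ccl24 was a liver gene in these data, and it was high in KCs and in both wild-type hepatic subsets. KCs held 302, 475, 137 and 298 RPM, wild-type hepatic Ly6C-high macrophages 220, 224 and 129 RPM, and wild-type hepatic Ly6C-low macrophages 75.9, 88.6 and 92.3 RPM. KCs overlapped the Ly6C-high subset only through KC replicate 3, at 137 RPM, and both lay above the Ly6C-low subset, the reverse of the order of Retnla. Without RNase T2 the Ly6C-high libraries held 2.46, 0.618 and 1.54 RPM, and the means stood 124-fold apart. The Ly6C-low libraries held 9.31, 0.389 and 0.153 RPM, and the means stood 26.1-fold apart, or 316-fold without Rnaset2-/- replicate 1, whose 9.31 RPM makes up most of that mean. Neither pair of groups overlapped.

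In the spleen Ccl24 was low in every group. Wild-type splenic Ly6C-high macrophages held 1.39, 1.74 and 2.66 RPM and Rnaset2-/- ones held 0.189, 0.392 and 0.427 RPM, 5.74-fold apart in the mean and without overlap. Splenic Ly6C-low macrophages overlapped, with 2.87, 0.618 and 1.41 RPM in wild-type and 5.33, 0, 0.496 and 0.141 RPM in Rnaset2-/- libraries, so the fall seen in the other 3 subsets was not seen in every library here. The highest of these values belonged to replicate 1, one of the libraries named above as standing apart. Ccl26, the related eotaxin gene, was at most 0.0233 RPM in any group mean. The receptor gene Ccr3 averaged 5.45 RPM in wild-type and 0.785 RPM in Rnaset2-/- splenic Ly6C-high macrophages and fell in that subset, in splenic Ly6C-low and in hepatic Ly6C-high macrophages, with log2 changes of -1.83, -1.31 and -1.13. In hepatic Ly6C-high macrophages Ccr3 passed the filter only through the wild-type libraries. Ccr3 is itself one of the eosinophil markers. Their sum went the other way, from 101 to 113 RPM in wild-type to 259 to 473 RPM in Rnaset2-/- splenic Ly6C-high macrophages (3 of 4 tested rose and 1 fell) and from 16.2 to 44.3 RPM to 226 to 528 RPM in splenic Ly6C-low macrophages (2 of 4 rose and 1 fell), and it was 4.55 to 140 RPM against 88.9 to 190 RPM in hepatic Ly6C-high macrophages (1 of 5 rose and 1 fell). The part of eosinophils in the level of Ccr3 was not tested.

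Arg1, like Ccl24, was found mainly in the liver. No splenic group mean passed 1.21 RPM, and the gene did not pass the filter in any comparison within the spleen. KCs held 31.3, 22.6, 28.8 and 30.9 RPM. Wild-type hepatic Ly6C-low macrophages held 14.9, 14.5 and 25.5 RPM and Rnaset2-/- ones 3.54, 0.623 and 0.766 RPM, and the groups did not overlap. Arg1 fell there by 3.02 on the log2 scale (SE 0.428, limma adjusted p = 0.000936), and the means stood 11.1-fold apart, or 26.3-fold without Rnaset2-/- replicate 1. It met the filter through the wild-type libraries, since Rnaset2-/- replicates 2 and 3 were under 1 RPM. Among hepatic Ly6C-high macrophages the wild-type libraries ranged widely, with 32.0, 18.7 and 5.01 RPM, and overlapped the Rnaset2-/- libraries, with 7.75, 3.09 and 1.77 RPM. The log2 change was -2.02 (SE 0.671, limma adjusted p = 0.0531) and was not called. It was called without replicate 1 of the Rnaset2-/- group (-2.52, limma adjusted p = 0.00522), without replicate 3 of the wild-type group (-2.72, limma adjusted p = 0.0268) and by DESeq2 (-2.38, adjusted p = 0.00404).

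Hepatocyte genes were present in the liver libraries. The 8 hepatocyte markers in the table summed to 1489 to 5007 RPM in KCs, 48.8 to 157 RPM in wild-type and 12.2 to 75.1 RPM in Rnaset2-/- hepatic Ly6C-low macrophages, and at most 0.142 RPM in any splenic library. Of the 5 tested in the latter comparison 1 fell. The hepatic Ly6C-high libraries held 32.0 to 41.1 RPM in wild-type and 23.9 to 72.3 RPM without RNase T2. The part of hepatocyte RNA in the level of Arg1 was not tested. The other arginase gene, Arg2, averaged 2.06 RPM in wild-type and 1.80 RPM in Rnaset2-/- hepatic Ly6C-low macrophages and was not called in any genotype comparison. Odc1, which encodes the ornithine decarboxylase that acts after arginase on the way to polyamines, averaged 190 against 45.9 RPM in hepatic Ly6C-high macrophages, where it fell by 2.29 on the log2 scale, and 66.1 against 56.9 RPM in hepatic Ly6C-low macrophages, where it was not called.

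Mrc1 marked KCs and moved in opposite directions in the Ly6C-high macrophages of the 2 organs. KCs held 1352, 1600, 1340 and 1339 RPM, above every other library. Wild-type splenic Ly6C-high macrophages held 48.8, 40.1 and 44.5 RPM and Rnaset2-/- ones 11.1, 6.37 and 6.03 RPM, a fall of 2.30 on the log2 scale (SE 0.198, limma adjusted p = 1.92e-05). The wild-type hepatic Ly6C-high libraries held 26.5, 40.6 and 32.7 RPM and the Rnaset2-/- libraries 53.0, 214 and 328 RPM, all 3 above all 3 wild-type values. The rise was 1.90 (SE 0.536, limma adjusted p = 0.0308), and it was no longer called when any 1 library other than replicate 1 of the Rnaset2-/- group was left out (limma adjusted p from 0.0699 to 0.105), that is without Rnaset2-/- replicate 2 or 3 or wild-type replicate 1, 2 or 3. Without the filter on low values it was not called either (limma adjusted p = 0.056). The difference between the organs was itself large, at 4.23 (SE 0.637, limma adjusted p = 0.000422).

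The Ly6C-low macrophages showed weaker changes of Mrc1. Splenic Ly6C-low macrophages held 44.6, 52.3 and 30.6 RPM in wild-type and 33.8, 17.0, 17.5 and 28.5 RPM in Rnaset2-/- libraries, with overlap (log2 change -0.80, SE 0.274, limma adjusted p = 0.0941), and without replicate 1 of the Rnaset2-/- group it was called (-0.95, limma adjusted p = 0.0369). Hepatic Ly6C-low macrophages held 76.7, 107 and 96.7 RPM in wild-type and 382, 99.2 and 159 RPM in Rnaset2-/- libraries, with overlap (log2 change 0.93, SE 0.442, limma adjusted p = 0.122), and without replicate 2 of the latter it was called (1.41, limma adjusted p = 0.024). The organ difference in this subset was 1.74 (SE 0.561, limma adjusted p = 0.0349), and without the filter its limma adjusted p was 0.0632. Leaving out 1 library moved that p above 0.05 in 8 of 13 cases, with a log2 difference between 1.21 and 2.21 over all 13.

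Markers of sinusoidal endothelium, which also carries Mrc1, summed higher in both Rnaset2-/- liver subsets and in Rnaset2-/- splenic Ly6C-low macrophages. The 10 markers summed to 135 to 180 RPM in wild-type and 823 to 3687 RPM in Rnaset2-/- hepatic Ly6C-high macrophages, and 10 of 10 rose, with none at 0 in every library of either group. Hepatic Ly6C-low libraries held sums of 372 to 669 RPM in wild-type and 1830 to 4853 RPM in Rnaset2-/- mice, and 3 of 10 rose. They summed to 4459 to 9882 RPM in KCs. Where Mrc1 fell, in splenic Ly6C-high macrophages, they summed to 69.3 to 74.6 RPM in wild-type and 77.8 to 167 RPM in Rnaset2-/- libraries, with 3 of 5 tested lower and 1 higher. Splenic Ly6C-low libraries, where the log2 change of Mrc1 was -0.80, held 297 to 351 RPM in wild-type and 1503 to 2265 RPM in Rnaset2-/- mice, and 1 of 4 tested rose. The 8 KC markers, which also go with Mrc1, summed to 478 to 787 RPM in wild-type and 6986 to 11622 RPM in Rnaset2-/- hepatic Ly6C-low macrophages, and 5 of 8 rose. In the Ly6C-high subset of the liver, where Mrc1 rose, they summed to 584 to 828.7 RPM in wild-type and 434 to 635 RPM in Rnaset2-/- libraries, and 3 of 7 tested rose and 1 fell. The part of either cell type in the level of Mrc1 was not tested. Mrc2, its relative, averaged at most 6.61 RPM and fell in splenic and hepatic Ly6C-low macrophages, by 1.84 and 1.15 on the log2 scale. In the hepatic comparison Mrc2 passed the filter only through the wild-type libraries.

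Mgl2 was low throughout, rose in splenic Ly6C-high macrophages and fell in hepatic Ly6C-low macrophages. Wild-type hepatic Ly6C-low macrophages held 6.21, 4.18 and 4.38 RPM, 172 reads in all, and the 3 Rnaset2-/- libraries held 0 RPM. The mean was at least 21.1-fold lower against the floor of 3 reads, and the test called it (log2 change -2.57, SE 0.251, limma adjusted p = 0.00016), although it passed the filter only through the wild-type libraries. The rise in splenic Ly6C-high macrophages was from 1.60, 1.18 and 1.26 RPM in wild-type to 2.31, 4.17 and 6.70 RPM in Rnaset2-/- libraries (log2 change 1.20, SE 0.277, limma adjusted p = 0.00689). The organ difference was -2.07 (SE 0.418, limma adjusted p = 0.00265) in Ly6C-high and -2.88 (SE 0.348, limma adjusted p = 0.000102) in Ly6C-low macrophages, where Mgl2 passed the filter only through the wild-type liver libraries. Hepatic Ly6C-high macrophages, with 1.54, 1.25 and 0.805 RPM in wild-type and 0, 0.463 and 0.538 RPM in Rnaset2-/- libraries, did not pass the filter. Splenic Ly6C-low macrophages were near the floor, at 0 to 0.07 RPM in wild-type and 0 to 0.781 RPM in Rnaset2-/- libraries.

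Clec10a, the gene next of kin to Mgl2 among the macrophage galactose lectins, did not rise in the spleen. It averaged 29.5 RPM in wild-type and 12.9 RPM in Rnaset2-/- splenic Ly6C-high macrophages and fell by 1.09 on the log2 scale (SE 0.242, limma adjusted p = 0.00559). Both lectin genes fell in hepatic Ly6C-low macrophages, with Clec10a at 35.8 against 4.40 RPM. Because the 2 genes are closely related, reads could be split between them, and their separation in this assay was not tested. Beside these changes in splenic Ly6C-high macrophages, 8 of 8 tested dendritic cell markers fell, with sums of 306 to 338 against 99.5 to 106 RPM, and 6 of 12 neutrophil markers rose, with sums of 30644 to 32872 against 33476 to 57981 RPM. Their part in the level of Mgl2 was not tested.

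Pdcd1lg2 was a liver gene whose level was decided by 1 library in each Rnaset2-/- group. Wild-type hepatic Ly6C-high macrophages held 28.7, 19.2 and 14.5 RPM and Rnaset2-/- ones 98.6, 5.02 and 5.46 RPM. Wild-type hepatic Ly6C-low macrophages held 11.4, 18.1 and 14.9 RPM and Rnaset2-/- ones 19.6, 0.156 and 0.23 RPM. Replicate 1 was the high library in both Rnaset2-/- groups, and the other libraries of these groups lay below every wild-type library. The log2 changes were -0.70 (SE 1.03, limma adjusted p = 0.633) in Ly6C-high and -2.37 (SE 0.983, limma adjusted p = 0.0822) in Ly6C-low macrophages, and neither was called. Without replicate 1 they were -2.08 (limma adjusted p = 0.000266) and -3.72 (limma adjusted p = 2.59e-05). KCs held 1.47, 6.91, 0.349 and 6.21 RPM, and the splenic groups averaged at most 0.373 RPM and did not pass the filter.

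The receptor and the other ligand of the same axis were measured as well. Cd274, which encodes PD-L1, averaged 225 and 230 RPM in wild-type and Rnaset2-/- hepatic Ly6C-low macrophages (log2 change -0.09, SE 0.268, limma adjusted p = 0.819) and rose by 1.03 in splenic Ly6C-high macrophages. Pdcd1, which encodes PD-1 and is best known from T cells, averaged 1.30 against 23.0 RPM in hepatic Ly6C-high and 0.547 against 13.2 RPM in hepatic Ly6C-low macrophages, and it rose by 3.10 and 3.16 on the log2 scale. In hepatic Ly6C-low macrophages Pdcd1 passed the filter only through the Rnaset2-/- libraries. Of the T or NK cell markers 7 of 7 in hepatic Ly6C-high macrophages rose, with sums of 6.98 to 15.8 RPM against 259 to 416 RPM, and in hepatic Ly6C-low macrophages 3 of 5 tested rose, with 3.04 to 4.72 against 30.6 to 87.2 RPM. The part of these cells in the level of Pdcd1 was not tested.

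**Figure D2:**
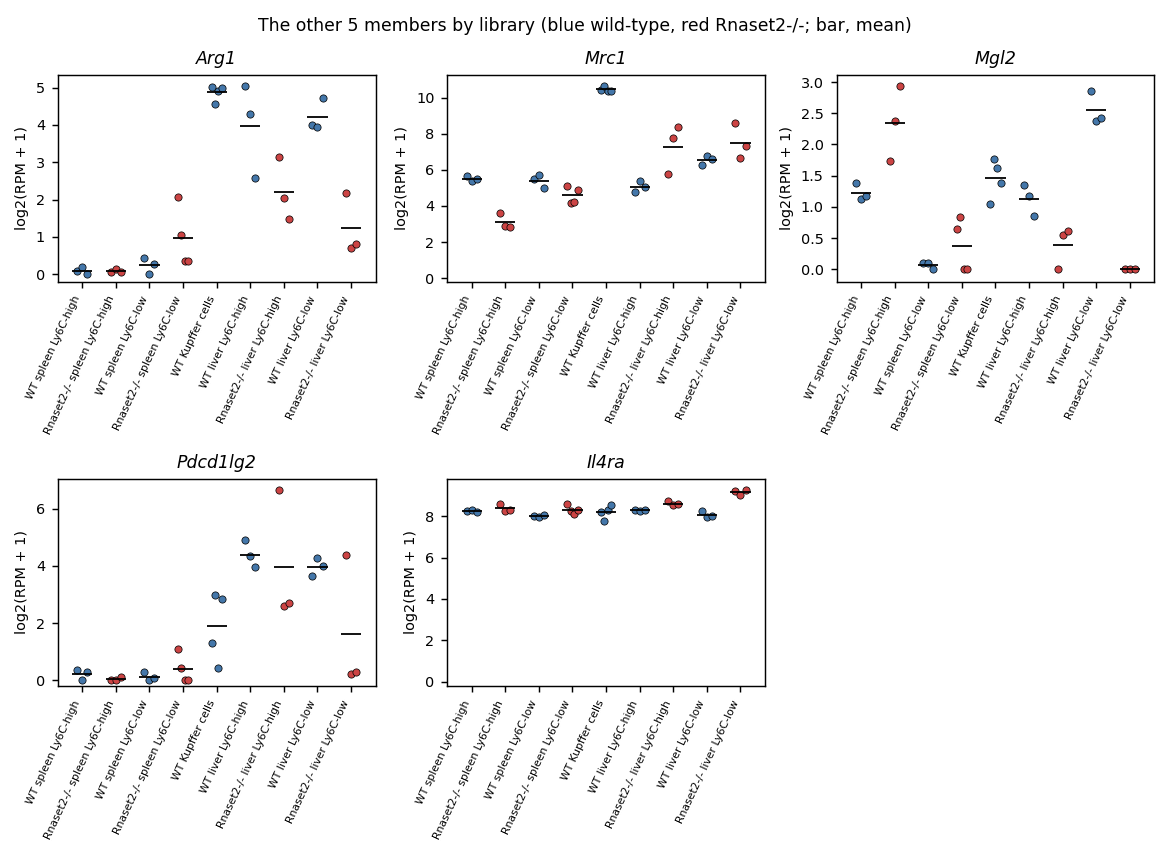
Arg1, Mrc1, Mgl2, Pdcd1lg2 and Il4ra in each of the 29 libraries, as log2(RPM + 1) on a vertical axis of its own for each gene; points are libraries, bars are group means on that scale, blue is wild-type and red is Rnaset2-/-. Arg1 and Pdcd1lg2 are near 0 in spleen, Mrc1 stands highest in Kupffer cells, and Il4ra varies little apart from its high level in Rnaset2-/- hepatic Ly6C-low macrophages.

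Il4ra was present in every group and rose in hepatic Ly6C-low macrophages, the subset in which Arg1 and Mgl2 fell. Its group means lay between 255 and 565 RPM. Wild-type hepatic Ly6C-low macrophages held 300.1, 249 and 258 RPM and Rnaset2-/- ones 582, 509 and 603 RPM, without overlap, a log2 change of 1.03 (SE 0.166, limma adjusted p = 0.00174). The same comparison in the spleen gave 256, 243 and 265 RPM against 381, 307, 274 and 310 RPM, which also did not overlap, and a log2 change of 0.32 that was not called (SE 0.119, limma adjusted p = 0.118). The organ difference was 0.72 (SE 0.188, limma adjusted p = 0.0133). Splenic Ly6C-high macrophages held 304, 311 and 294 RPM in wild-type and 386, 299 and 315 RPM in Rnaset2-/- libraries (log2 change 0.25, SE 0.104, limma adjusted p = 0.0877). Hepatic Ly6C-high macrophages held 317, 302 and 310.3 RPM against 426, 363 and 376 RPM as deposited, but after scaling the log2 change was 0.00 (SE 0.187, 95% interval -0.43 to 0.44, limma adjusted p = 0.989), and without scaling it was 0.32 and not called. KCs, at 289, 219, 308 and 364 RPM, overlapped every other wild-type group.

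**Figure D3:**
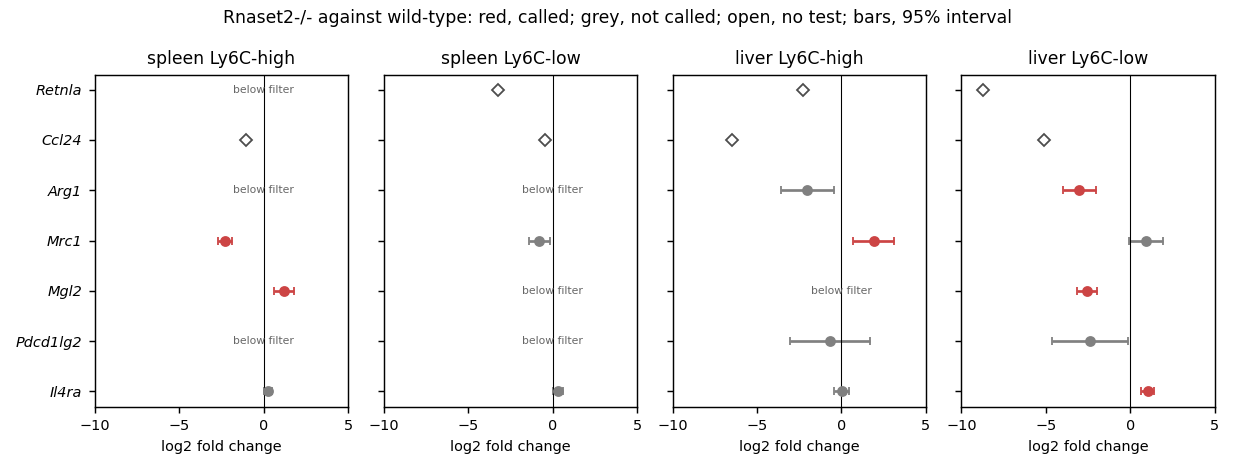
Log2 fold change between Rnaset2-/- and wild-type macrophages (horizontal axis, scaled RPM + 1) for the 7 genes in 4 subsets; circles are tested members with 95% intervals, red if called and grey if not, open diamonds are Retnla and Ccl24 without a test, and "below filter" marks genes that were not fitted. Mrc1 lies to the left in splenic and to the right in hepatic Ly6C-high macrophages, and Il4ra is the called rise in hepatic Ly6C-low macrophages.

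The counts of the gene lists that follow are to be set against the shares of all tested genes called higher and lower, which were 9.77% and 12.5% in splenic Ly6C-high, 4.05% and 4.3% in splenic Ly6C-low, 15.7% and 14.9% in hepatic Ly6C-high and 20.2% and 22.5% in hepatic Ly6C-low macrophages. The lists were chosen with earlier results of these data known, so their counts are a description. A tested gene named below that averaged under 1 RPM in a group passed the filter through the other group. The list of other components of IL-4 receptor signalling held 15 genes, 14 of them in the table and 10 of them tested in each genotype comparison. Of these, 2 rose and 3 fell in hepatic Ly6C-low macrophages, close to those shares, with a median log2 change of -0.23 against 0.01 over all tested genes. Il13ra1, whose product pairs with IL-4Rα in the receptor that also binds IL-13, fell from 122 to 20.4 RPM (log2 change -2.81, SE 0.448, limma adjusted p = 0.00166), the opposite direction to Il4ra. Ptpn1, which encodes the phosphatase PTP1B, a brake on JAK signalling, rose from 287 to 1767 RPM (log2 change 2.64, SE 0.268, limma adjusted p = 0.000187). Irs2, an adaptor of the IL-4 receptor, and Jak2 fell by 1.14 and 1.13 on the log2 scale.

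In hepatic Ly6C-high macrophages, 2 of 10 rose and 2 fell (median -0.29 against 0.01). Jak3, the kinase bound to the common γ chain, and Ptpn1 rose by 1.86 and 1.43 on the log2 scale, and Irs2 and Il13ra1 fell by 1.23 and 0.95. Splenic Ly6C-high macrophages had 1 rise and 1 fall (median -0.05 against 0.01), namely Ptpn1 by 0.80 and Irs2 by 1.01, and in splenic Ly6C-low macrophages 0 rose and 1 fell (median -0.14 against 0.01), namely Il13ra1, from 230.3 to 74.9 RPM (log2 change -1.62, SE 0.228, limma adjusted p = 0.00601). Stat6 was called in none of the 4 comparisons, with log2 changes from -0.18 to 0.10. The ligand genes Il4 and Il13 averaged at most 0.663 and 0.166 RPM in any group and did not pass the filter.

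Transcription factors and other regulators of alternative activation fell more often than they rose in 3 subsets, though in hepatic Ly6C-high macrophages by 3 against 2. Of 14 tested factors, 9 fell and 1 rose in splenic Ly6C-high macrophages, where 12.5% of all tested genes fell (median log2 change -0.70 against 0.01 over all tested genes), with Irf4, a factor needed for many IL-4 responses, falling from 99.0 to 30.7 RPM, Batf3 from 10.6 to 3.62 RPM and Maf from 66.7 to 32.3 RPM, and Pparg, a lipid-sensing nuclear receptor, rising from 15.1 to 33.0 RPM. Hepatic Ly6C-low macrophages had 7 falls and 4 rises, where 22.5% of all tested genes fell and 20.2% rose (median -0.78 against 0.01). There Klf4, a partner of STAT6, fell from 427 to 23.6 RPM (log2 change -4.19, SE 0.217, limma adjusted p = 1.26e-05), Klf6 from 851 to 147 RPM and Irf4 from 45.9 to 8.09 RPM, while Batf3 rose from 7.76 to 42.5 RPM. For hepatic Ly6C-high macrophages 3 fell, among them Klf6 from 901 to 346 RPM and Kdm6b from 18.6 to 7.98 RPM, and 2 rose, with Maf from 120 to 265 RPM (median -0.53 against 0.01). Splenic Ly6C-low macrophages had 1 rise, Kdm6b, and 0 falls (median 0.28 against 0.01).

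Klf4, Klf6 and Egr2 are also known to respond quickly to cell handling. The 12 immediate early genes of a separate list summed to 20206 to 29453 RPM in the wild-type and 1133 to 5378 RPM in the Rnaset2-/- hepatic Ly6C-low and Ly6C-high libraries together, and 12 of 12 fell in both hepatic comparisons. Of the same list, 6 of 12 fell in splenic Ly6C-high macrophages. KCs held 1970 to 3203 RPM. The part of this difference in the member genes was not tested.

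Other IL-4 target genes, on a list chosen with earlier results of these data known, fell most often in hepatic Ly6C-low macrophages. Of 24 listed genes 23 were in the table, and in hepatic Ly6C-low macrophages 21 were tested, of which 16 fell, against 22.5% of all tested genes, 2 rose and 3 were not called, with a median log2 change of -2.81 against 0.01 over all tested genes. Alox15, a lipoxygenase, fell from 122 to 0.18 RPM (log2 change -6.62, SE 0.393, limma adjusted p = 1.97e-05). Cd209a, a lectin that is also on the dendritic cell list, fell from 129 to 0.386 RPM (log2 change -6.57, SE 0.245, limma adjusted p = 2.43e-06). Alox15 and Cd209a both averaged under 1 RPM without RNase T2, so they passed the filter through the wild-type libraries. Ccl22, a chemokine for CCR4+ T cells, fell from 135 to 1.28 RPM, and Fn1, fibronectin, fell from 358 to 5.14 RPM. The 2 that rose were Ptgs1 and Tgm2, by 3.54 and 1.38 on the log2 scale, both chosen for mention after their values were seen.

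Of the targets in hepatic Ly6C-high macrophages, 8 of 20 tested fell and 1 rose (median -1.05 against 0.01), with Cd209a from 65.3 to 5.22 RPM, Il1r2, the decoy receptor for IL-1, from 43.3 to 2.31 RPM, Ccl17 from 12.0 to 0.513 RPM and Clec7a, the β-glucan receptor Dectin-1, from 2629 to 561 RPM. Among splenic Ly6C-high macrophages 8 of 17 fell and 3 rose (median -0.48 against 0.01). Cd209a fell there from 20.6 to 3.29 RPM and Cd163, the hemoglobin scavenger receptor, from 12.1 to 2.29 RPM, and Il1rn, the IL-1 receptor antagonist, rose from 14.0 to 32.6 RPM. For splenic Ly6C-low macrophages 5 of 17 fell and 0 rose (median -0.39 against 0.01), with the scavenger receptor Cd36 from 563 to 126 RPM and Clec7a from 509 to 133 RPM.

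Genes of classical activation belong to the counterpart programme driven by interferon-γ and microbial products. Among hepatic Ly6C-low macrophages 5 of 13 tested genes fell and 0 rose (median -0.47 against 0.01), with Ptgs2 from 159 to 8.64 RPM and Tnf from 12.9 to 2.73 RPM. The hepatic Ly6C-high comparison had 5 of 13 fall and 2 rise (median -1.24 against 0.01), with Il12b from 0.683 to 39.0 RPM and Ccl5 from 136 to 1272 RPM higher and Il6 from 22.9 to 4.18 RPM lower. The summed level of these genes there was 11752 RPM in Rnaset2-/- replicate 1 and 2850 and 2948 RPM in the other 2, against 5604 to 6572 RPM in wild-type libraries, and Ccl5 ranged from 432 to 2870 RPM across the Rnaset2-/- libraries. T or NK cell markers, which go with Ccl5, summed to 6.98 to 15.8 RPM in wild-type and 259 to 416 RPM in Rnaset2-/- libraries, and 7 of 7 rose. Of the splenic subsets, Ly6C-high macrophages had 4 of 11 lower and 1 higher (median -0.32 against 0.01), and Ly6C-low macrophages 2 of 13 lower and 1 higher (median -0.17 against 0.01). Il1b was the gene that rose in both, from 218 to 503 RPM and from 325 to 1651 RPM. The 12 neutrophil markers, cells that also carry Il1b, summed to 30644 to 32872 RPM in wild-type and 33476 to 57981 RPM in Rnaset2-/- splenic Ly6C-high macrophages, with 6 of 12 higher, and to 1127 to 2444 RPM and 3409 to 39325 RPM in splenic Ly6C-low macrophages, with 2 of 12 higher. The part of these cells in the levels of Ccl5 and Il1b was not tested.

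**Figure D4:**
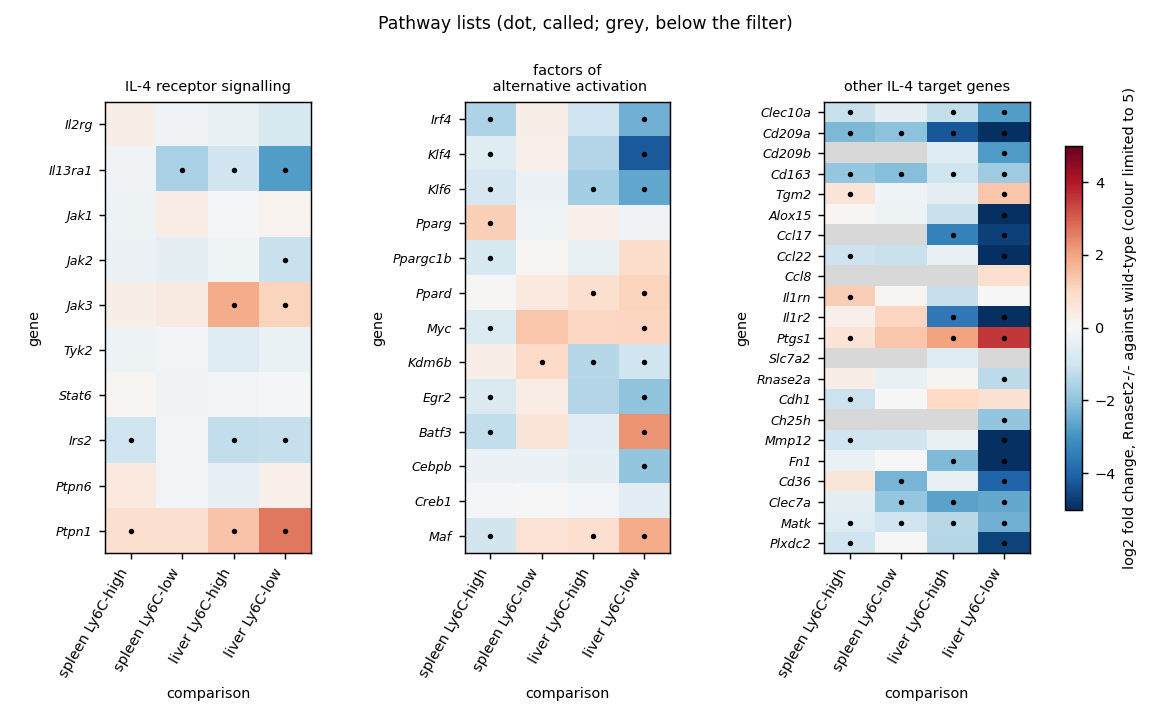
Log2 fold change between Rnaset2-/- and wild-type macrophages for tested genes of 3 lists (rows) in 4 subsets (columns), in colour limited to 5 in either direction; dots mark called genes and grey marks genes below the filter. In hepatic Ly6C-low macrophages 16 of 21 IL-4 target genes are called lower, and Il13ra1 and Ptpn1 are called in opposite directions.

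The subsets within a genotype were also compared. In wild-type liver, Ly6C-low against Ly6C-high macrophages, 2 of 5 tested members were higher and 0 lower, against 10.1% of all tested genes called in either direction. These were Mrc1 (log2 difference 1.36, SE 0.183, limma adjusted p = 0.00168) and Mgl2 (1.35, SE 0.290, limma adjusted p = 0.0186), and Mgl2 was not called without replicate 1 or 3 of the Ly6C-low group or replicate 3 of the Ly6C-high group (limma adjusted p from 0.0633 to 0.0891). Retnla had means of 413 and 3.70 RPM in these subsets, 111-fold apart, and Ccl24 had 85.6 and 191 RPM. In wild-type spleen 1 of 3 tested members was called, against 33.6% of all tested genes: Mgl2 was lower in Ly6C-low macrophages, 2 reads against 58, a ratio of 29.01 with a 95% counting interval of 7.68 to 245, and it passed the filter only through the Ly6C-high libraries. Retnla averaged 25.3 RPM in Ly6C-low and 0.835 RPM in Ly6C-high macrophages of wild-type spleen, 30.3-fold apart. Without scaling factors the share of calls higher in Ly6C-low macrophages went from 52.0% to 65.4% in wild-type liver, from 41.1% to 29.8% in wild-type spleen and from 51.4% to 38.8% in Rnaset2-/- liver, with medians over all genes of 0.11, -0.13 and -0.17.

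The same subset comparisons were made without RNase T2. In Rnaset2-/- spleen 2 of 3 tested members were called, against 28.1% of all tested genes: Mrc1 was higher in Ly6C-low macrophages (log2 difference 1.51, SE 0.291, limma adjusted p = 0.00672) and Mgl2 was lower (-1.98, SE 0.346, limma adjusted p = 0.00445), having passed the filter only through the Ly6C-high libraries. In Rnaset2-/- liver 0 of 4 tested members were called by limma, against 17% of all tested genes, with 1 of the 4 at an unadjusted p below 0.05. In that comparison libraries of the same number deviated together, and with the replicate number as a block 2 of 4 were called, Pdcd1lg2 lower in Ly6C-low macrophages (-2.25, limma adjusted p = 0.0011) and Il4ra higher (0.70, limma adjusted p = 0.0438, against 0.0642 without the block). Without replicate 1 of the Ly6C-high group Il4ra was called as well (0.86, limma adjusted p = 0.0278). The difference of these subset contrasts between genotypes was not tested.

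KCs resembled neither hepatic Ly6C-low group in all members. Against wild-type hepatic Ly6C-low macrophages, 1 of 5 tested members was higher in KCs and 2 were lower, where 50% of all tested genes were called in either direction. Mrc1 was higher (log2 difference 3.32, SE 0.174, limma adjusted p = 2.83e-07), and Mgl2 (-1.53, SE 0.290, limma adjusted p = 0.00126) and Pdcd1lg2 (-2.54, SE 0.542, limma adjusted p = 0.0026) were lower. Arg1 was not called (0.08, 95% interval -0.46 to 0.62) but was without scaling factors (0.64, limma adjusted p = 0.039), where the median of all genes was 0.55. Il4ra was not called at -0.48, which fell short of the 1.5-fold threshold but passed it without KC replicate 4 (-0.59, limma adjusted p = 0.0169). As deposited, before scaling, the mean of Il4ra was instead higher in KCs, at 295 against 269 RPM. Against Rnaset2-/- hepatic Ly6C-low macrophages 3 were higher and 1 lower, where 45.6% of all tested genes were called. Arg1 (3.25, SE 0.385), Mrc1 (2.41, SE 0.386) and Mgl2 (1.32, SE 0.275) were higher and Il4ra was lower (-1.48, SE 0.217), with limma adjusted p from 0.000255 to 0.00413. Mgl2, at 0 in every Rnaset2-/- library, passed the filter only through the KCs. Arg1 also met it through the KCs, being under 1 RPM in Rnaset2-/- replicates 2 and 3. The 2 comparisons share the KC libraries. Without scaling factors the share of calls higher in KCs went from 52.0% to 79.8% and from 57.5% to 84.1%. Retnla in KCs was 94.6-fold lower than in wild-type and at least 18.7-fold higher than in Rnaset2-/- hepatic Ly6C-low macrophages, and the interval of Pdcd1lg2 against the latter, from -2.32 to 2.33, was too wide to place it.

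The organ by genotype difference was called for 2 of 5 members in Ly6C-high macrophages, against 34.3% of all tested genes, and for 4 of 5 in Ly6C-low macrophages, against 27.1% of all tested genes. Of the 4, Mgl2 passed the filter only through the wild-type liver libraries. Mrc1 lost its call in 8 of 13 fits without 1 library, and over these fits 2 to 4 members were called. Without scaling factors the share of calls above 0 in the Ly6C-high comparison went from 52.2% to 78.5%, with a median over all genes of 0.35. In Ly6C-low macrophages, Arg1 had the largest difference of the tested members (-3.73, SE 0.632, limma adjusted p = 0.00097), which rests on a spleen in which it averaged 0.187 RPM in wild-type and 1.21 RPM in Rnaset2-/- macrophages. Pdcd1lg2 was called in neither subset (-0.51, SE 1.17, and -2.62, SE 1.10), and was called in both without replicate 1 of the Rnaset2-/- liver group (-1.91 and -3.99, limma adjusted p of 0.000538 and 4.74e-05). Its splenic groups averaged at most 0.373 RPM, where a fall could hardly be seen, so these differences rest on the liver libraries. Arg1 in Ly6C-high macrophages was -1.99 (SE 0.761, limma adjusted p = 0.0608) and was called without replicate 1 of the Rnaset2-/- liver group (-2.51) or replicate 3 of the wild-type liver group (-2.68). This too rests on the liver, since Arg1 averaged 0.0693 RPM in wild-type and 0.064 RPM in Rnaset2-/- splenic Ly6C-high macrophages.

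**Figure D5:**
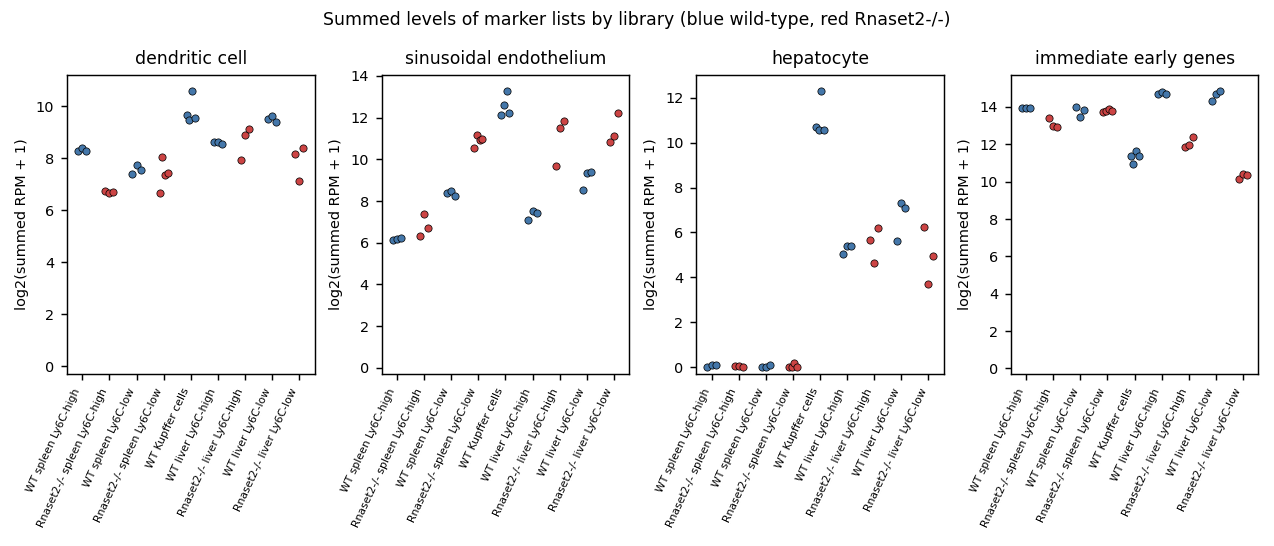
Summed RPM of 4 marker lists in each of the 29 libraries, as log2(sum + 1) on the vertical axis of each panel, by group (blue wild-type, red Rnaset2-/-). Dendritic cell markers are lower in Rnaset2-/- hepatic Ly6C-low macrophages (138 to 333 RPM) than in wild-type ones (668 to 792 RPM), sinusoidal endothelium is higher in both Rnaset2-/- hepatic subsets, hepatocyte markers are highest in Kupffer cells, and immediate early genes are lowest in Rnaset2-/- hepatic macrophages and Kupffer cells.

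Across the 9 group means of log2(RPM + 1), the members did not form 1 pattern. Ccl24 and Arg1 were the closest pair (Pearson r = 0.93, Spearman rho = 0.73), Ccl24 and Retnla reached r = 0.51, and Il4ra and Retnla had r = -0.61. These are 9 points of shared libraries, in which 3 wild-type liver groups weigh heavily, and are given as a description. Among 9676 genes with at least 10 RPM in some group, those most like Retnla were Cd209c (r = 0.93), Rsbn1l (0.92), Prg4 (0.92), Ptar1 (0.90) and Gm5086 (0.90), and over the 29 single libraries Prg4 came first. Those most like Ccl24 were Pik3r4 (0.98), Abhd4 (0.98), 1810032O08Rik (0.97), Rabep1 (0.97) and Camk1 (0.97). For the other members they were Utp11l and Akr1c14 for Arg1 (r of 0.97 and 0.96), Gm6904, Bank1 and Gm32645 for Mrc1 (all 0.98), Cep57, Ndufs4 and Pdss1 for Mgl2 (0.88 to 0.92), Cxcl11, Gpnmb and Hspa1b for Pdcd1lg2 (0.94 to 0.96), and Opa3, Ctsh and Ppp1r11 for Il4ra (0.95 to 0.97). By group means no member was among these nearest genes of another, whereas over the 29 single libraries Ccl24 was the gene most like Arg1 (r = 0.92).

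The chitinase-like relatives of Chil3 in the table were also read. Chil4 and Chia1 averaged at most 0.374 and 0.666 RPM in any group. Chil1 was a splenic gene, at 84.3 RPM in wild-type and 119 RPM in Rnaset2-/- Ly6C-high macrophages, and at 6.06 and 55.0 RPM in splenic Ly6C-low macrophages (log2 change 2.43, SE 0.705, limma adjusted p = 0.0645, not called). In the liver it averaged at most 2.82 RPM.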

How the data were processed

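Total RNA of sorted macrophages was made into Ion AmpliSeq Transcriptome Mouse libraries and sequenced on an Ion Proton by the authors, with the AmpliSeqRNA plug-in v5.2.0.3 of Torrent Suite v5.2.2 and, per the labels, the mm10 build. The assay reads 1 amplicon set per gene, so levels were compared between libraries and not between genes. The authors deposited RPM for 23930 genes. 100% of the values were whole reads within 0.1, which gave the reads and floors. Each fit used RPM divided by relative log expression factors, log2 with a pseudocount of 1, and limma 3.58.1 (lmFit, eBayes with trend) in R 4.3.3, two-sided. edgeR 4.0.16 and DESeq2 1.42.0 on recovered reads, a pseudocount of 0.1, no filter, no scaling, 1 fit of all 29 libraries, a replicate block and leaving out each library were alternatives. In Rnaset2-/- liver, same-numbered Ly6C-high and Ly6C-low libraries deviated together (r = 0.49, 0.29 and 0.27), each matching its own number best. Same-numbered KC and Rnaset2-/- hepatic Ly6C-low libraries, whose genotypes differ, had r of 0.16, 0.14 and 0.37. There replicate 2 did not match its own number best. The pairing in Rnaset2-/- liver is taken from the data, since no label states it. Intervals and floors cover counting error only.

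The members and lists were chosen with earlier results of these data known. All members were named, with up to 4 called genes per list and comparison of largest change and at least 5 RPM in a group, the relatives and partners of the members at any level, and the genes of highest Pearson r. The tests were planned for 6 members, of which Chil3 was not analysed. The Rnaset2a and Rnaset2b genes were not analysed here, so the deletion was not checked. The fits were tested on simulated data. Some named genes are not reported here, although they remain in the counts.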

Additional observations from a re-analysis of the deposited data

Results flagged for a closer look

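Each of the 7 members was tested for a library far from the others in the 2 groups that hold 4 libraries. Of these 14 sets of values, which share the same libraries, 2 held one, and chance gives about 1 in 20. Ccl24 was 5.33 RPM in replicate 1 of Rnaset2-/- splenic Ly6C-low macrophages, where the nearest library held 0.496 RPM. Mrc1 was 1600 RPM in replicate 2 of the KCs, where the others held 1339 to 1352 RPM.

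The genotype difference differed between liver and spleen for 6 results, given as the log2 difference in liver minus that in spleen. In Ly6C-high macrophages these were Mrc1 (4.23) and Mgl2 (-2.07). In Ly6C-low macrophages they were Arg1 (-3.73), Mrc1 (1.74), Mgl2 (-2.88, above the filter only in wild-type liver) and Il4ra (0.72). Organ, preparation and, in part, sex differ together in these comparisons and cannot be told apart.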

How the results depend on the processing

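The numbers of members called kept within 1.5-fold of the reported ones in every setting other than these: hepatic Ly6C-high genotype, 3 in 1 fit of all 29 libraries, 2 with the replicate block and 2 with DESeq2; splenic Ly6C-low genotype, 1 with DESeq2; Rnaset2-/- liver subsets, 1 in the fit of all libraries, 2 with the block and 1 with DESeq2; wild-type liver subsets, 1 without the filter and 1 in the fit of all libraries. Leaving out 1 library gave 0 to 3 calls in hepatic Ly6C-high and 0 to 1 in splenic Ly6C-low genotype comparisons, 0 to 1 in wild-type and 1 to 2 in Rnaset2-/- spleen subsets, 1 to 2 in wild-type and 0 to 1 in Rnaset2-/- liver subsets, 2 to 4 in hepatic Ly6C-low genotype and in both organ comparisons, 3 to 4 in KCs against wild-type, and no change in the others. In the spleen subsets Mgl2 left the fit when a Ly6C-high library was dropped, since fewer than 3 libraries then passed the filter. Without the filter, Mrc1 lost its call in the hepatic Ly6C-high genotype (limma adjusted p = 0.056) and Ly6C-low organ comparisons (0.0632). The causes of the other moves were not tested.

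The fitted log2 changes of Retnla and Ccl24, which carry no test, kept their sign in the 4 genotype comparisons and moved with the pseudocount and the tool. For Retnla they were -4.99 with a pseudocount of 0.1, -2.16 unscaled, -6.49 with DESeq2 and -6.20 with edgeR in hepatic Ly6C-high macrophages (-2.29 as fitted), -12.03, -8.81 in the fit of all libraries, -14.88 and -15.34 in hepatic Ly6C-low macrophages (-8.71), and -4.28 and -4.27 in splenic Ly6C-low macrophages (-3.25). For Ccl24 they were -7.31, -7.24 and -7.22 in hepatic Ly6C-high (-6.50), -6.38 with a pseudocount of 0.1 in hepatic Ly6C-low (-5.11), -2.12, -2.42 and -2.40 in splenic Ly6C-high (-1.06) and -1.47 with a pseudocount of 0.1 in splenic Ly6C-low macrophages (-0.45). The organ by genotype value of Retnla in Ly6C-high macrophages turned from -1.51 to 0.38 with edgeR.

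Outside Rnaset2-/- liver, the replicate block changed the call of 1 member in hepatic Ly6C-high macrophages (Arg1, limma adjusted p = 0.00694), of Il4ra in KCs against wild-type Ly6C-low macrophages (-0.60, limma adjusted p = 0.0276) and of Arg1 in the Ly6C-high organ comparison (limma adjusted p = 0.0315), where the numbers are not known to pair libraries. Genes called over the whole table ranged most in splenic Ly6C-low macrophages (860 as reported, 1600 with DESeq2, 515 without the filter, 145 to 1121 without 1 library), in splenic Ly6C-high macrophages (2311, and 1145 in the fit of all libraries), in hepatic Ly6C-high macrophages (3351, 5638 in that fit and 1695 to 3880 without 1 library), in Rnaset2-/- spleen (2897, 1319 with the block and 1694 to 3603 without 1 library), in wild-type liver (1178, and 546 to 964 without 1 library) and in Rnaset2-/- liver (1853, 3796 in that fit, 3135 with the block and 445 to 2324 without 1 library). Depth limits Mgl2, Arg1 in spleen and Retnla in Ly6C-high macrophages, which rest on few reads.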
